A study of Mus musculus with 9 samples.

Results

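Loss of both alleles of *Mafg* while 1 allele of *Mafk* is kept was examined here by comparing lenses of compound KO embryos with lenses of control embryos at stage E16.5 of embryonic development. The comparison takes in 14348 genes of the 22013 transcript-level entries in the authors' table, namely the entries that carry a gene symbol (15820 do) and reach 1 or more in no fewer than 2 of the 6 libraries concerned. The compound KO genotype is *Mafg*-/-:*Mafk*+/- and the control genotype is *Mafg*+/-:*Mafk*+/-. Control lenses are therefore not wild-type: they carry 1 germline KO allele of each gene, and both groups share the *Mafk* heterozygosity. The mice were kept mostly on an ICR background, the KO alleles act in every tissue of the embryo and not in lens alone, and each library holds RNA pooled from 8 lenses, with 3 biological replicates in each group. Double KO lenses, *Mafg*-/-:*Mafk*-/-, make up the remaining 3 of the 9 libraries and are shown only as values beside the comparison. All values are the authors' normalized CPM, read counts scaled to library size, and the number of reads behind a value is unknown.

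Small Maf proteins are basic leucine zipper factors with a DNA-binding region and no transactivation domain. They act on their DNA sites as homodimers, which repress, or as heterodimers with larger partners. Nrf2 (encoded by *Nfe2l2*) and Nrf1 are partners that activate antioxidant and detoxification genes, and Bach1 is a partner that represses genes of heme breakdown and iron storage until heme releases it. In lens, which must keep its proteins clear for life, these genes are known for protection against oxidative damage, and the related large Maf factors drive the crystallin genes of fiber cells.

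The genotype was visible in the targeted gene. *Mafg* (chromosome 11, 120515942 to 120524530, minus strand, GRCm39) had values of 113, 121 and 135 in the control libraries and of 10.1, 21.0 and 24.1 in the compound KO libraries, in replicate order. The groups were far apart, and reads at the locus did not disappear. The double KO libraries had 24.6, 21.2 and 26.2. On the log2(value + 1) scale the compound KO differed from control by −2.75 (SE 0.32, n = 3 in each group), with an unadjusted p of 0.00017 and an adjusted p of 0.188 by limma. *Sirt7*, a deacetylase gene whose annotation overlaps *Mafg* on the same strand, had 10.2, 9.5 and 9.1 in control and 6.1, 6.9 and 7.5 in compound KO libraries, and reads of the shared stretch may be counted to either gene. *Mafk* had 5.2, 6.3 and 5.6 in control and 4.3, 5.3 and 4.8 in compound KO, which overlapped, and 0.6, 0 and 0.3 in double KO. *Maff*, the remaining small Maf gene, had 3.6, 5.1 and 3.2 in control against 4.3, 3.5 and 3.9 in compound KO, a log2 difference of 0.00 (SE 0.19).

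One library stood apart, so the counts, the list medians and the log2 differences of the main genes below are also given without it. In compound KO replicate 1, the 17 measured markers of lens fiber cells had a median ratio of 0.354 to their control mean, against 0.826 and 0.894 in compound KO replicates 2 and 3 and between 0.930 and 1.10 in the control libraries. Markers of tissues that lie around the lens went the other way. The summed value of 25 neural retina markers was 2068 in compound KO replicate 1, 480 in replicate 2 and 172 in replicate 3, against 56.5 to 161 in control. Of the skeletal muscle list, 17 measured genes added up to 518, 61.4 and 36.7 in the compound KO libraries against 14.7 to 17.0 in control. For 16 mesenchyme and fibroblast genes the sums were 3292, 815 and 745 against 612 to 678, for 7 surface epithelium genes 369, 22.6 and 17.6 against 15.7 to 17.6, and for 8 pigment epithelium and melanocyte genes 923, 121 and 109 against 71.6 to 104. Among tested genes, no marker of the retina, muscle, mesenchyme or surface epithelium lists was at 0 in any compound KO library. In each control library 2 to 4 muscle markers were at 0. Of 21 muscle list genes in the authors' table, 17 passed the filter. A marker at 0 in control could pass it through the compound KO libraries alone, so these zeros are no evidence of a difference. The muscle sums also take in genes that passed in this way, such as *Myod1* and *Actc1*. The lens epithelium list, by contrast, added up to 769, 845 and 839 against 815 to 984. The lens identity of all 6 libraries was plain from *Mip*, the fiber cell water channel, at 3103, 8222 and 8497 in compound KO and 8879 to 10197 in control. In bulk RNA, fewer cells of a type and less RNA per cell cannot be told apart, and the part of the tissue composition in the results was not tested.

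**Figure D1:**
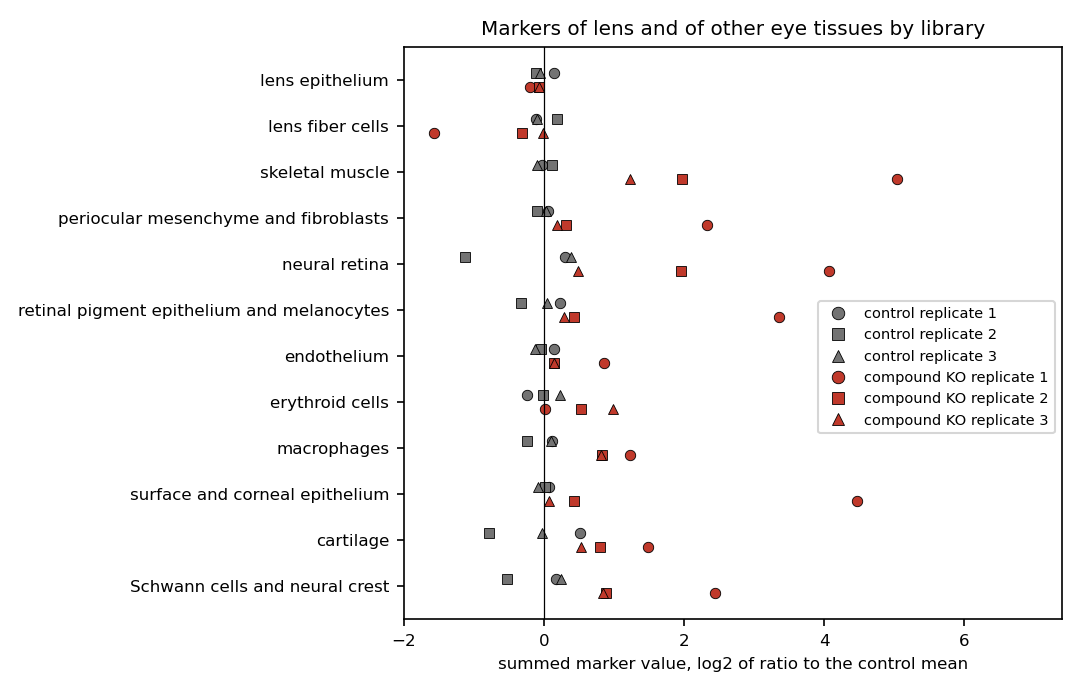
Summed values of 12 marker lists in each control (grey) and compound KO (red) library, as log2 of the ratio to the control mean (x axis), with circles, squares and triangles for replicates 1, 2 and 3. Compound KO replicate 1 lies far to the right for muscle, retina, surface epithelium and pigment epithelium and far to the left for lens fiber cells, where its summed value is 20890 against 57702 to 70553 in control.

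No gene was called between compound KO and control after adjustment. The smallest adjusted p by limma with Benjamini-Hochberg adjustment over the 14348 genes was 0.154, and 0% of genes passed an adjusted p of 0.05 with a 1.5-fold change. At an unadjusted p of 0.05 with the same fold change, 766 genes (5.34%) passed, 547 of them higher in compound KO (3.81%) and 219 lower (1.53%), and without a fold threshold 1335 (9.3%) passed. The split depended on the scaling: with libraries set to the same total in place of the authors' composition factors, the median difference over all genes became 0.24 on the log2 scale and 748 higher (5.25%) against 91 lower genes (0.638%) passed. All 3 compound KO libraries lay above all 3 control libraries for 1749 genes (12.2%) and below them for 1681 (11.7%), together 23.9%. This near-even split held for the authors' scaling: it was 3682 above and 425 below with equal totals, and 5251 and 72 with each library scaled to its lens fiber markers, as described below.

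Replicate 1 differed from control at the most genes. Compound KO replicate 1 was at least 2-fold above the highest control library for 1502 genes and at least 2-fold below the lowest for 512, on the value + 1 scale. The counts were 299 and 164 in replicate 2 and 116 and 137 in replicate 3. The double KO libraries had 118 to 138 above and 153 to 166 below, so replicate 2 had more genes above than any of them. Only 19 genes were above the control range by this margin in all 3 compound KO libraries and 11 below it. Among the 19 were *Slc48a1*, *Myod1*, *Ptafr*, *Etv1*, *Prdm2* and *Mknk2*, and among the 11 were *Mafg*, *Trex1*, *Xbp1*, *Tenm2* and *Ptprg*. With replicate 1 left out, limma called 13 of 14042 genes (0.0926%), 8 higher and 5 lower, at an adjusted p of 0.05. With all 6 libraries but array weights estimated for each, 80 genes (0.558%) were called, 48 higher and 32 lower, 12 of the 13 among them. The weights were 0.130 for replicate 1, 4.64 for replicate 2 and 0.747 for replicate 3, and their estimation stopped before it converged.

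**Figure D2:**
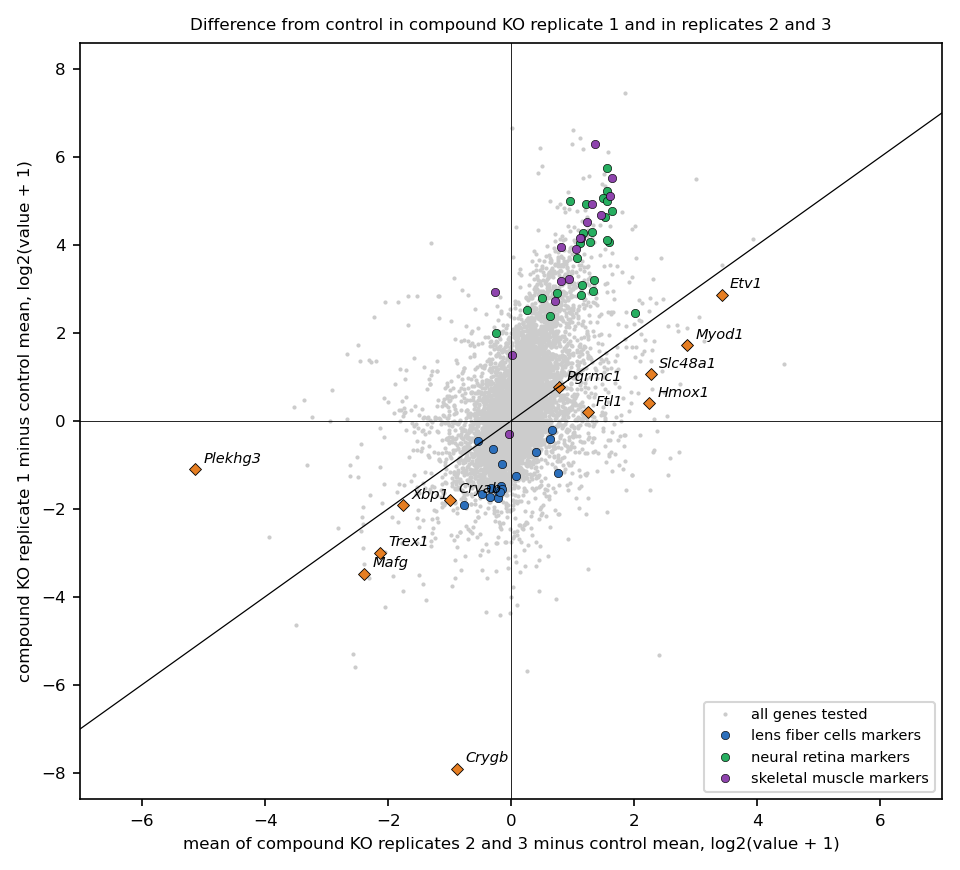
Difference from the control mean on the log2(value + 1) scale for each of the 14348 genes (grey), in compound KO replicate 1 (y axis) against the mean of replicates 2 and 3 (x axis), with the line of equality. Lens fiber markers (blue) lie below the line of no difference in replicate 1, retina and muscle markers (green, purple) lie mostly above it, and the named genes (orange) include *Mafg* and *Trex1* low in all 3 libraries and *Slc48a1*, *Ftl1* and *Hmox1* with a smaller difference in replicate 1.

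Of the genes of heme and iron handling, *Slc48a1*, *Ftl1* and *Hmox1* were far above control in replicates 2 and 3. The summed value of the list was 1202, 2141 and 2426 in compound KO and 1198 to 1252 in control. Markers of erythroid cells, which make heme in quantity, followed the same order within the compound KO libraries but not within control. The sum of 8 measured markers was 1472, 2121 and 2909 in compound KO, 1235, 1443 and 1710 in control and 2405 to 3958 in double KO. In the same order, the control sums of the heme list were 1231, 1252 and 1198. None of the 8 passed the unadjusted p with all libraries, beside 5.34% of all genes. Without replicate 1, 5 passed as higher, beside 2.6% of all genes. The part of these markers in the values of the heme list was not tested. *Slc48a1* (chromosome 15, 97676401 to 97690573, plus strand), which encodes the heme transporter HRG1 of lysosome membranes, had 30.5, 27.1 and 30.3 in control libraries and 62.2, 146 and 144 in compound KO libraries. Every compound KO library was above every control library, replicate 1 by the least. The double KO libraries had 165, 167 and 163. The log2 difference from control was 1.87 (SE 0.35, unadjusted p 0.0019, adjusted p 0.441) with all 6 libraries, and 2.27 (SE 0.07, adjusted p 0.010) by limma without replicate 1.

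*Ftl1*, the ferritin light chain that stores iron, had 686, 678 and 608 in control and 749, 1422 and 1697 in compound KO. Again the groups did not overlap and replicate 1 was close to control. The log2 difference was 0.89 (SE 0.31, unadjusted p 0.031), and 1.24 without replicate 1 (adjusted p 0.0756 by limma). *Hmox1* (chromosome 8, 75820241 to 75827217, plus strand), the inducible heme oxygenase that opens the heme ring, had 1.8, 1.2 and 3.5 in control and 3.0, 14.1 and 12.6 in compound KO, so replicate 1 lay within the control range. In double KO it had 24.9, 20.4 and 24.7. Its log2 difference from control was 1.63 (SE 0.59, unadjusted p 0.034) and became 2.24 without replicate 1 (adjusted p 0.189 by limma).

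Not every gene of the list behaved so. *Fth1*, the ferritin heavy chain, had 361, 384 and 389 in control and 256, 428 and 421 in compound KO, which overlapped, and *Slc40a1*, the iron exporter ferroportin, had 7.3, 7.0 and 8.2 against 7.2, 8.8 and 8.1. *Ncoa4*, the receptor that delivers ferritin for breakdown, was lower, at 27, 47.3 and 47.7 in control and 25.1, 19.0 and 23.6 in compound KO (log2 difference −0.79, SE 0.25, unadjusted p 0.022, and −0.86 without replicate 1). Of the 12 genes of the list, all measured, 3 passed the unadjusted p as higher and 1 as lower, beside 3.81% and 1.53% of all genes, and the median log2 difference was 0.09 against 0.02 over all genes tested. *Alas1*, *Fech*, *Blvra*, *Blvrb*, *Tfrc* and *Pir*, which make heme, reduce biliverdin, take up iron or are otherwise known to be under Bach1, differed by between −0.19 and 0.21, all with overlapping groups.

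Once each library was divided by its own lens fiber ratio, some genes in replicate 1 came close to replicates 2 and 3 and others moved away from them. *Slc48a1* then had 176, 177 and 161 in compound KO against 24.6 to 32.6 in control, and *Mafg* had 28.6, 25.4 and 27 against 110 to 145. *Ftl1* had 2119, 1721 and 1899 against 616 to 735, and *Myod1* had 7.35, 7.51 and 8.73 against 0 to 0.214. *Hmox1* stayed lower in replicate 1, with 8.48, 17.1 and 14.1. For the 13 genes called without replicate 1, the median ratio between the highest and the lowest compound KO library (value + 1) was 2.33 in the deposited values and 1.31 after this scaling, with 7 of 13 narrower. The 6 others widened: *Plekhg3* from 16.3 to 44.3, *Nfyb* from 3.86 to 9.02, *Gna11* from 2.84 to 6.74, the entry 8-Sep from 1.21 to 2.89, *Pgrmc1* from 1.01 to 2.51 and *Etv1* from 1.49 to 1.64. Over all genes tested the median ratio widened from 1.4 to 2.54, and 13.0% became narrower. The scaling was chosen after the values were seen, moves the median difference over all genes from 0.02 to 0.59 on the log2 scale and called 0 genes by limma, with 879 past an unadjusted p of 0.05 and 1.5-fold. With it, the log2 difference was 2.49 for *Slc48a1* and 1.51 for *Ftl1*, both above that median. Of the fiber markers, *Crybb1*, *Crybb3*, *Cryba4* and *Crygs* also belong to the crystallin lists below, whose scaled values therefore depend in part on themselves.

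The antioxidant and detoxification genes known as Nrf2 targets were mixed. Of 30 listed genes, 26 were tested, and 3 passed the unadjusted p as higher and 2 as lower, beside 3.81% and 1.53% of all genes, with a median log2 difference of 0.20 (0.24 without replicate 1). *Txnrd1*, the cytosolic thioredoxin reductase, had 53.1, 49.2 and 51.6 in control and 97.7, 70.8 and 68.3 in compound KO, without overlap and highest in replicate 1 (log2 difference 0.59, SE 0.15, unadjusted p 0.0085). *Srxn1*, sulfiredoxin, which restores oxidized peroxiredoxins, had 9.1, 10.8 and 10.3 against 17.5, 12.4 and 19.0 (log2 difference 0.63, unadjusted p 0.016). *Gsta4*, a glutathione transferase that clears lipid aldehydes, had 14.9, 10.1 and 11.1 against 26.9, 16.8 and 18.6 (log2 difference 0.73, unadjusted p 0.020). All 3 genes had adjusted p-values of 0.481 by limma, and without replicate 1 they differed by 0.43, 0.57 and 0.54.

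Others were above control in replicates 2 and 3 only. *Gclm*, the modifier subunit of the enzyme that starts glutathione synthesis, had 47.2, 49.0 and 50.3 in control and 48.6, 65.4 and 88.1 in compound KO. *Me1*, the cytosolic malic enzyme that yields NADPH, had 31.4, 32.5 and 33.4 against 28.8, 53.6 and 47.8, and *Slc7a11*, the cystine importer, had 35.6, 34.2 and 33.8 against 31.4, 46.1 and 46.7. Their log2 differences of 0.42, 0.36 and 0.23 became 0.63, 0.63 and 0.42 without replicate 1, with adjusted p-values by limma of 0.276, 0.125 and 0.154. *Nqo1*, a quinone reductase widely used as an Nrf2 readout, had 2.5, 2.7 and 2.6 in control against 7.7, 2.2 and 2.3 in compound KO, high only in replicate 1. *Gstm1* and *Gstp1*, glutathione transferases with the lower values, had 125 to 151 and 163 to 182 in control. In compound KO they had 51.5, 99.7 and 101 (*Gstm1*, log2 difference −0.76, unadjusted p 0.036) and 72.2, 143 and 126 (*Gstp1*, log2 difference −0.64, unadjusted p 0.050). Both were lowest in the library with the low fiber markers, and differed by −0.44 and −0.35 without it. *Gclc*, *Cat*, *Gsr* and *Prdx1* differed by between −0.18 and 0.13.

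Sequence matches to the DNA motifs that these dimers are known to bind are shown next, since the partners are defined by those motifs. They are given for 6 genes of this list and for *Pir* of the heme list, and binding at them was not tested. The 250 bases before the start of each gene's canonical transcript were searched on both strands for TGACNNNGC, the core of the antioxidant response element, and for TGANTCAGC, the NF-E2 form, where a site spelled with C at the N of the second motif matches both. The shown stretches are from GRCm39 with starts from GENCODE, read 5′ to 3′ on the strand of the gene, and capitals mark the match. Those of *Gsta4*, *Txnrd1* and *Prdx1* overlap an annotated exon.
Srxn1 (chr2:151947389-151947417, plus strand): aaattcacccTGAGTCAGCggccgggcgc
Gsta4 (chr9:78099133-78099161, plus strand): tactcagtaaTGAGTCAGCgaaaactttt
Txnrd1 (chr10:82694938-82694966, plus strand): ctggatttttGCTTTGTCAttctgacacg
Gclm (chr3:122039062-122039090, plus strand): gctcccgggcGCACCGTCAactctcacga
Sqstm1 (chr11:50102992-50103020, minus strand): gaattcctctTGACTCAGCttcccaaggg
Prdx1 (chr4:116542653-116542681, plus strand): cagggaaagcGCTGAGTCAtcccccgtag
Pir (chrX:163052203-163052231, plus strand): gcatagagagGCTGAGTCActcccccaaa
For genes with an annotated start, the first motif was in the window of 5 of 26 tested genes of the Nrf2 list and the second in 4 of 26 (*Gsta3*, not shown, holds the first and had values of at most 1.1), beside 9.67% and 0.933% of 21751 protein-coding genes. Among genes past the unadjusted p, the first motif was found for 10.5% of 506 higher and 12.1% of 182 lower genes, and the second for 0.988% and 1.1%, close to those shares. *Srxn1*, *Gsta4* and *Txnrd1* hold a match and were higher, and *Prdx1* and *Sqstm1* hold a match and had log2 differences of −0.18 and 0.17 with unadjusted p-values of 0.21 and 0.25. Of the heme list, 2 of 12 genes hold the first motif (*Pir* and *Blvra*, not shown) and 1 of 12 the second (*Pir*). Other named genes with a match, not shown, were *Pgrmc1*, which was higher, and *Mafg*, *Plekhg3* and *Gm28036*, which were lower. *Slc48a1*, *Ftl1* and *Hmox1* hold neither in these windows, which says nothing of sites elsewhere.

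Of the partner genes tested, only *Bach1* had a positive log2 difference in the deposited values, and the signs depended on the scaling. *Nfe2l2*, which encodes Nrf2, had 29.0, 31.4 and 31.2 in control and 22.0, 9.5 and 23.4 in compound KO, without overlap and with replicate 2 as the lowest (log2 difference −0.80, SE 0.34, unadjusted p 0.057, and −0.98 without replicate 1). *Bach1* had 17.8, 15.8 and 17.5 against 35.7, 21.2 and 20.1, all higher, and differed by 0.52 (unadjusted p 0.068), or 0.26 without replicate 1. *Nfe2l1*, *Keap1* and *Bach2* overlapped between the groups, with log2 differences of −0.06, −0.28 and −0.28. Among the large Maf genes, *Mafa* had 12.8, 14.7 and 12.8 in control and 3.2, 6.7 and 7.6 in compound KO, with a log2 difference of −1.14 (SE 0.29, unadjusted p 0.0089, adjusted p 0.481 by limma), and of −0.82 without replicate 1. *Maf*, which drives crystallin genes, had 1036 to 1198 against 364, 876 and 969. It did not overlap with control, and the compound KO library with low fiber markers was lowest by far. Divided by the lens fiber ratio, *Maf* had 1028, 1060 and 1085 in compound KO and 1088 to 1128 in control, while *Mafa* had 9.05, 8.11 and 8.50 against 13.3 to 13.8. Over the 11 measured genes of this group, 10 had a negative difference and 2 passed the unadjusted p, *Mafa* and the targeted *Mafg*, both lower, beside 1.53% of all genes. The median was −0.28, −0.19 without replicate 1, and 0.33 with the lens fiber scaling.

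**Figure D3:**
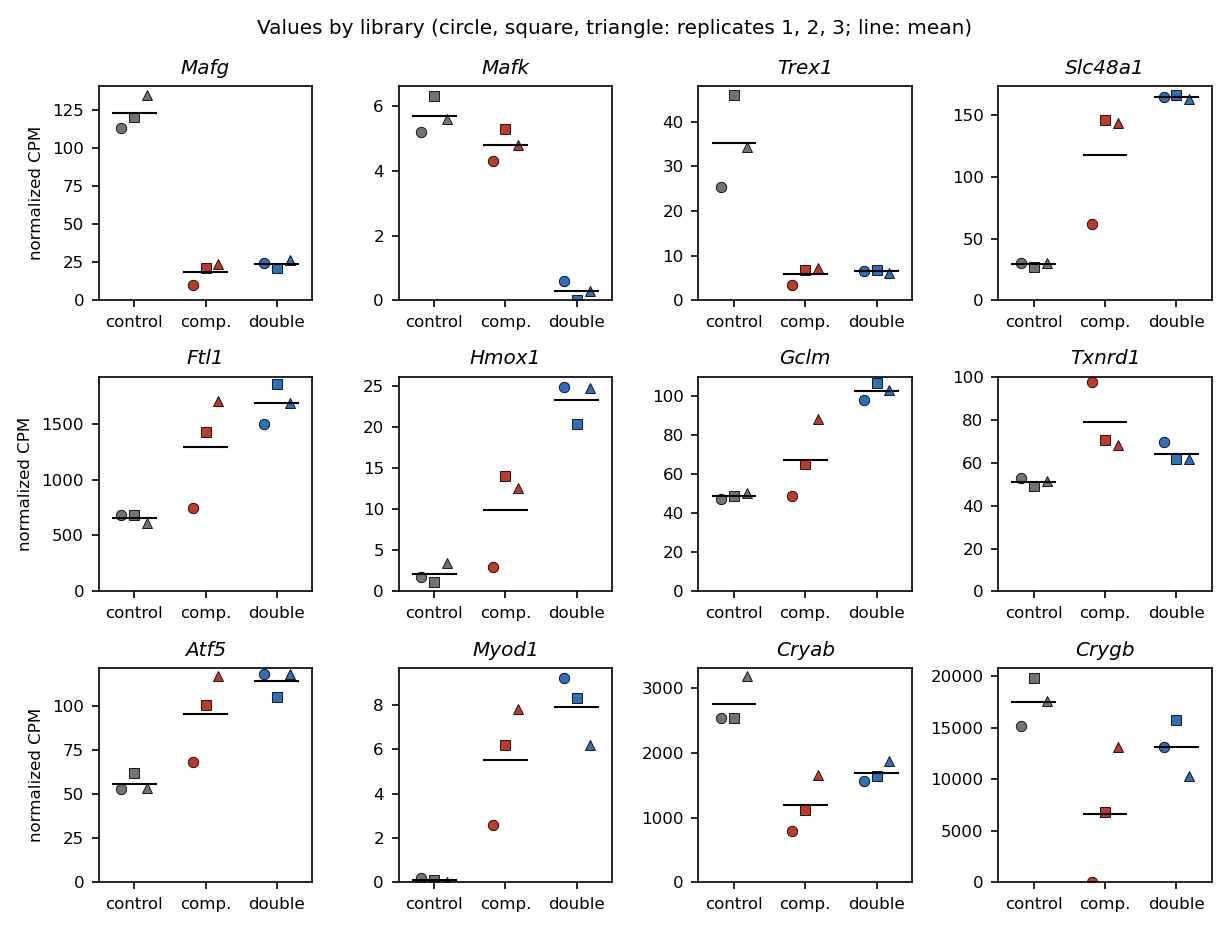
Normalized CPM (y axis, from 0) of 12 genes in the control (grey), compound KO (red) and double KO (blue) libraries, with symbols for the replicate number and a line at the mean of 3. In compound KO, replicate 1 (circle) lies below replicates 2 and 3 for *Slc48a1*, *Ftl1*, *Hmox1*, *Gclm*, *Atf5* and *Myod1* and above them for *Txnrd1*.

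*Trex1* (chromosome 9, 108887001 to 108888802, minus strand), which encodes the exonuclease that removes stray DNA from the cytosol, was among the lowest genes relative to control. It had 25.3, 45.9 and 34.3 in control and 3.4, 6.8 and 7.3 in compound KO, with every compound KO library far below control, and 6.6, 6.9 and 6.1 in double KO. The log2 difference was −2.42 (SE 0.33, unadjusted p 0.00041, adjusted p 0.243) and −2.13 without replicate 1 (adjusted p 0.132 by limma). *Atrip*, a DNA damage checkpoint gene whose annotation runs through *Trex1* on the same strand, had 1.2 to 3.3 in control and 1.6 to 2.4 in compound KO, so reads of the shared stretch may be counted to either.

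The candidates that the study chose were picked on libraries of this series, so their values are no independent evidence of a direction. Of the 11 candidates, *Hmox1* passed the unadjusted p as higher and *Trex1* as lower, beside 3.81% and 1.53% of all genes. *Pxdn*, a peroxidasin that crosslinks collagen IV, had 4.4 to 7.0 in control, 2.1, 5.4 and 6.7 in compound KO, and 6.9, 81.5 and 88.7 in double KO. *Map3k12*, a kinase upstream of JNK, had 12.9 to 17.0 in control, 11.9, 16.2 and 9.2 in compound KO, and 0.1, 0.8 and 6.4 in double KO. *Sipa1l1*, a Rap regulator, had 22.8 to 60.4, 55.2, 31.0 and 50.4, and 3.0, 4.1 and 2.3 in the same order of groups. *Lars2*, the mitochondrial leucyl-tRNA synthetase, had 202, 304 and 287 in control and 267, 20.2 and 78.6 in compound KO, low in replicates 2 and 3 only. *Camsap1*, which binds microtubule minus ends, had 0.3 to 1.8 in control and 2.7, 0.1 and 28.9 in compound KO, high in replicate 3 only. *Col3a1* and *Epha5* were higher in every compound KO library than in control, and highest by far in replicate 1, at 661 and 29.4.

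Crystallin values were mostly lower, and lowest in replicate 1. *Cryab*, the alpha-B crystallin that is also a small heat shock protein, had 2534, 2546 and 3191 in control and 791, 1124 and 1665 in compound KO. It was the only alpha or beta crystallin of 7 tested that passed the unadjusted p, beside 1.53% of all genes as lower (log2 difference −1.26, SE 0.29, unadjusted p 0.0057, adjusted p 0.481 by limma). It was at 1571, 1649 and 1869 in double KO, and it differed by −1.0 without replicate 1. The small heat shock gene *Hspb2* overlaps *Cryab* on the opposite strand. *Crygb*, a gamma crystallin of fiber cells, had 15185, 19804 and 17611 in control and 71.6, 6820 and 13123 in compound KO, so that replicate 1 held almost none of it. The log2 difference of −3.22 (SE 1.98, unadjusted p 0.16) became −0.88 without that library (unadjusted p 0.041, adjusted p 0.415 by limma). The median over the alpha and beta crystallins was −0.63 with all libraries, −0.21 without replicate 1 and 0.00 with lens fiber scaling. For the 8 gamma crystallins it was −0.67, −0.23 and −0.05, and none passed the unadjusted p. Of the 7 alpha and beta crystallins 4 did not overlap between the groups, and of the 8 gamma crystallins 4. All of these were lower, beside 11.7% of all genes. *Crygs*, *Cryga* and *Cryba4* were among those that overlapped. The gamma family members *Cryga* to *Crygf*, all on chromosome 1, are much alike in sequence, and their reads may be split between copies.

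Fiber cell and lens factor genes gave the same picture with a few exceptions. *Bfsp1*, the filensin of the beaded filament, had 4539, 5520 and 4519 in control and 1292, 2830 and 2829 in compound KO, and passed the unadjusted p (log2 difference −1.15, unadjusted p 0.019). *Dnase2b*, the nuclease that removes fiber cell DNA, had 68.6 to 78.8 against 22.6, 55.1 and 51.4, and *Cdh1*, the E-cadherin of the lens epithelium, had 228 to 239 against 79.9, 153 and 171 (log2 difference −0.87 for both, unadjusted p 0.047 and 0.026). All 3 were low in replicates 2 and 3 as well, and without replicate 1 *Bfsp1*, *Dnase2b* and *Cdh1* differed by −0.77, −0.47 and −0.54. They were 2 of 17 fiber markers and 1 of 8 epithelium markers to pass, all as lower, beside 1.53% of all genes. Of 14 lens transcription factors none passed the unadjusted p with the 1.5-fold change, and their median was −0.43, or −0.19 without replicate 1. *Pax6*, the master regulator of eye development, had 121, 100 and 88.0 in control and 163, 149 and 140 in compound KO, higher in all 3 libraries (log2 difference 0.55, SE 0.14, unadjusted p 0.0075, and 0.49 without replicate 1). Pax6 is also made in the retina, whose markers summed to 2068, 480 and 172 in compound KO and 56.5 to 161 in control. Their part in the *Pax6* values was not tested. *Foxe3*, *Pitx3*, *Sox1*, *Hey1* and *Tfap2a* did not overlap and were lower, with log2 differences between −0.73 and −0.35. With *Maf* counted, 6 of the 14 factors were lower without overlap, beside 11.7% of all genes. With lens fiber scaling *Foxe3*, *Pitx3* and *Sox1* differed by only −0.11, −0.12 and −0.09, and the differences of *Hey1* and *Tfap2a* turned positive. The lens capsule genes had a median of −0.43, which became −0.06 without replicate 1. Of 17 tested only *Lamb2*, a laminin chain, passed, as higher, beside 3.81% of all genes. It had 34.2, 26.9 and 21.2 in control and 54.3, 41.1 and 43.0 in compound KO (log2 difference 0.74, unadjusted p 0.011, and 0.62 without replicate 1).

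Stress genes showed 3 members past the unadjusted p among 15 tested, beside 5.34% of all genes. *Atf5*, a transcription factor of the mitochondrial and amino acid stress responses, had 52.7, 61.8 and 53.4 in control and 68.1, 100 and 117 in compound KO, without overlap, and 118, 105 and 118 in double KO (log2 difference 0.72, SE 0.21, unadjusted p 0.015, and 0.94 with adjusted p 0.125 by limma without replicate 1). *Xbp1*, a factor of the unfolded protein response, had 46.2, 25.3 and 20.3 in control and 6.9, 7.3 and 8.4 in compound KO. The compound KO values lay close together and well below control (log2 difference −1.81, SE 0.31, unadjusted p 0.0013, and −1.75 without replicate 1), while the double KO libraries were divided, at 29.1, 7.5 and 9.2. *Phgdh*, the first enzyme of serine synthesis, had 139 to 164 against 73.0, 102 and 124 (log2 difference −0.60, unadjusted p 0.027, and −0.39 without replicate 1). *Atf4*, *Ddit3*, *Asns* and *Herpud1*, further genes of these responses, overlapped and differed by between −0.09 and 0.31. *Hspa5*, the chaperone BiP, had 194 to 253 in control and 213, 144 and 123 in compound KO, low in replicates 2 and 3.

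Heat shock genes, sterol genes and Eph genes held no member past the unadjusted p and the fold change. Of 13 heat shock proteins, *Dnaja1* had 234.1, 232.1 and 228.9 in control and 164, 196 and 194 in compound KO, a log2 difference of −0.33 with an unadjusted p of 0.012, which was −0.25 without replicate 1 and 0.29 with lens fiber scaling. Of 21 sterol synthesis genes, *Sqle* had 72.7, 71.5 and 78.4 against 92.3, 86.8 and 88.5, differing by 0.26 on the log2 scale (unadjusted p 0.011). The list had a median of 0.24 with all libraries and 0.16 without replicate 1. The 18 measured Eph receptors and ephrins had a median of 0.61, or 0.31 without replicate 1. Their receptors with the largest differences, among them *Epha3*, *Epha4* and *Ephb1*, were highest in replicate 1 at 23.4, 18.3 and 22.3. *Epha2*, the receptor known for lens, had 79.6 to 98.8 in control and 36.9, 72.2 and 76.4 in compound KO.

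Of 26 cell cycle genes, 22 had a positive difference and 14 did not overlap between the groups, all higher, beside 12.2% of all genes, a share that depends on the scaling. Their summed value was 2492, 1408 and 1233 in compound KO and 1075 to 1237 in control. The neural retina markers had the same order within compound KO, at 2068, 480 and 172, and their part in these values was not tested. *Ccnd1*, cyclin D1, had 267, 229 and 276 in control and 1094, 410 and 318 in compound KO, and *Mcm3*, a subunit of the replication helicase, had 38.7, 27.7 and 30.7 against 82.9, 45.1 and 42.6. Both were highest in replicate 1 and least raised in replicate 3. Only *Aurkb*, *Cdc20*, *Mcm3* and *Bub1* passed the unadjusted p, beside 3.81% of all genes, and none did so with the fold change once replicate 1 was left out. The median of the list was 0.55 with all libraries and 0.26 without replicate 1.

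**Figure D4:**
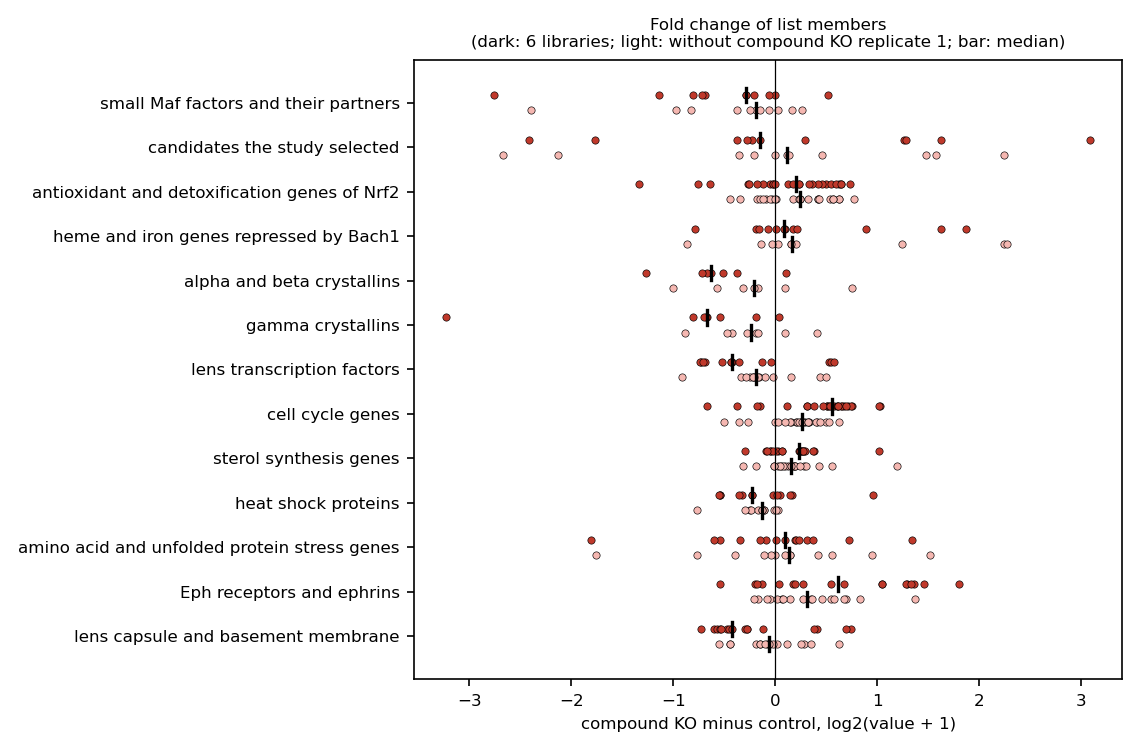
Compound KO minus control on the log2(value + 1) scale (x axis) for each measured member of 13 gene lists, with all 6 libraries (dark) and without compound KO replicate 1 (light), and a bar at the median. The medians of both crystallin lists, the lens transcription factors and the capsule genes move toward 0 without that library, from −0.67 to −0.23 for gamma crystallins, while *Slc48a1*, *Hmox1* and *Ftl1* in the heme list move away from 0.

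The 13 genes called by limma without replicate 1 were *Slc48a1*, *Mafg*, *Etv1*, *Myod1*, *Ptafr*, *Pgrmc1*, *Plekhg3*, *Gna11*, *Kctd20*, *Nfyb*, *Gm5776*, *Gm22133* and an entry that shows the date 8-Sep in place of a symbol. Of these, *Myod1* and *Ptafr* passed the filter through the compound KO libraries alone, so their calls are not independent of that filter. *Ptafr*, the receptor for platelet-activating factor, had 0.4, 0.3 and 0.4 in control, 2.0, 6.4 and 6.5 in compound KO and 8.1, 7.8 and 7.8 in double KO. *Gm5776*, annotated as a processed pseudogene on chromosome 7, had 2.3, 2.1 and 2.3, then 5.4, 12.9 and 11.2, then 11.9, 13.2 and 12 in the same order. A pseudogene shares sequence with its parent, so its reads are uncertain. *Gm22133* had 132, 144 and 138 in control, 143, 319 and 334 in compound KO and 343, 349 and 373 in double KO. In these 3 entries, as in *Slc48a1*, compound KO replicates 2 and 3 and all double KO libraries lay above control, and replicate 1 lay between for *Ptafr* and *Gm5776* and within the control range for *Gm22133*.

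*Myod1* (chromosome 7, 46025870 to 46028526, plus strand), the master regulator of skeletal muscle, had 0.2, 0.1 and 0 in control and 2.6, 6.2 and 7.8 in compound KO, with 9.2, 8.3 and 6.2 in double KO. *Acta1* and *Actc1*, the skeletal and cardiac actins, had 88.7 and 61.5 in compound KO replicate 1, 9.9 and 5.2 in replicate 2 and 4.7 and 1.9 in replicate 3, against at most 1.9 and 0.6 in control. *Myod1* is itself in the muscle list, and it passed the filter through the compound KO libraries alone. The list summed to 518, 61.4 and 36.7 in compound KO, 14.7 to 17.0 in control and 48.0 to 134 in double KO. The part of muscle RNA in the *Myod1* values was not tested. The log2 difference of *Myod1* was 2.48 (SE 0.35, unadjusted p 0.00052, adjusted p 0.286) and 2.86 without replicate 1 (adjusted p 0.032 by limma).

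*Pgrmc1*, a membrane heme-binding protein, was among the 5 genes with the smallest adjusted p. It had 72.6, 72.1 and 69.0 in control and 122, 123 and 122 in compound KO, with hardly any spread in either group and no departure of replicate 1 (log2 difference 0.77, SE 0.06, adjusted p 0.154 by limma). *Etv1*, an ETS factor downstream of FGF signaling, had 2.1, 1.7 and 1.1 against 18, 26.3 and 27.4, and a log2 difference of 3.24 (SE 0.24, adjusted p 0.154 by limma), or 3.42 without replicate 1. *Rsrc2*, a gene for a serine and arginine rich protein, had 32.7, 30.6 and 30.0 against 52.7, 52.0 and 53.8. *Zkscan7*, a zinc finger gene, was listed at 0 in all control libraries and at 3.6, 3.8 and 2.3 in compound KO. It passed the filter through the compound KO libraries alone, so its small adjusted p is not independent of that filter. The entry 8-Sep had 206, 229 and 214 against 114, 94.1 and 99.2. In double KO *Etv1*, *Rsrc2* and *Zkscan7* were divided between libraries and 8-Sep was at the control level: *Etv1* had 31.7, 30.9 and 1.4, *Rsrc2* had 31.4, 59.0 and 32.9, *Zkscan7* had 0, 3.7 and 3.4, and 8-Sep had 210, 211 and 215.

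Of the called genes that were lower, *Plekhg3* had 29.2, 37.7 and 35.9 in control and 15.3, 0 and 0 in compound KO, with 0, 0.2 and 0 in double KO. *Gna11*, a G protein alpha subunit, had 66.2, 63.1 and 61.5 in control and 58.3, 19.9 and 21.1 in compound KO, but 59.8, 59.3 and 59.3 in double KO. *Nfyb*, a subunit of the CCAAT-binding factor NF-Y, had 17.0, 17.0 and 15.3 against 21.0, 4.7 and 5.1. Replicate 1 lay just below the control range for *Gna11* and above it for *Nfyb*.

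The largest differences without overlap among genes with a mean of at least 10 included entries that took either of 2 levels. The 12 higher genes were *Prdm2*, *Thap11*, *Metrn*, *Etv1*, *Zc3h13*, *Actc1*, *Ncam1*, *Fndc3b*, *Acta1*, an entry shown as 3-Sep, *Tubb3* and *Nxpe4*, and the 12 lower genes were *Tenm2*, *Plekhg3*, *Adam9*, *Ptprg*, *Mafg*, *Wdr41*, *Rnf180*, *Sh2b1*, *Trex1*, *Unc13c*, *2610021A01Rik* and *Gm28036*, which overlaps *Cpne1*, *Rbm12* and *Nfs1* on its strand. *Thap11*, a zinc finger gene, had 30.9, 0 and 0 in control and 36.1, 32.9 and 33.2 in compound KO, and 32.6, 31.6 and 0 in double KO. *Adam9*, a metalloprotease, had 91.6, 87.8 and 91.7 in control, 0.9, 2.3 and 74.5 in compound KO and 75.7, 81.7 and 1.8 in double KO. *Tenm2*, a teneurin adhesion gene, had 35.5, 27.6 and 32.0, then 0.3, 2.8 and 1.2, then 0.1, 30.4 and 36.7. Such steps occurred within each of the 3 genotypes. The authors' entries come from transcript-level counts, and 6193 further entries without a symbol held 25.0% of the total in compound KO replicate 1 and 31.1% to 32.4% in the other 5 libraries. Within a group, the highest library exceeded the lowest by over 4-fold (value + 1) for 561 genes in control (3.91%), 1151 in compound KO (8.02%) and 586 in double KO (4.08%).

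*Prdm2*, a histone methyltransferase gene, had 0.3, 3.3 and 3.2 in control and 49.5, 40.9 and 44.6 in compound KO, with 3.6, 17.6 and 41.4 in double KO (log2 difference 4.0, SE 0.49, unadjusted p 0.00024, and 3.93 without replicate 1). *Metrn*, a secreted neurotrophic factor gene, had 1.0, 0.4 and 2.2 against 4.1, 48.2 and 39.8, and 1.2 to 3.1 in double KO. *Ncam1*, a neural adhesion molecule, and *Tubb3*, a neuronal tubulin, were highest in replicate 1, at 76.8 and 468 against at most 15.2 and 26.4 in control. *Tubb3* was one of 7 of 25 neural retina markers that passed the unadjusted p, all higher, beside 3.81% of all genes, and 1 of the 25 did without replicate 1.

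The summed macrophage markers were above control in all 3 compound KO libraries. The summed value of 12 measured markers was 50, 37.9 and 37.5 in compound KO, 23.0, 18.1 and 22.8 in control and 27.1, 13.8 and 17.9 in double KO. The complement genes *C1qa*, *C1qb* and *C1qc* and the protease gene *Ctss* passed the unadjusted p, 4 of the 12, beside 3.81% of all genes as higher. *C1qa* had 2.3, 1.8 and 1.4 in control and 4.8, 4.1 and 3.9 in compound KO, with a log2 difference of 0.90 and an unadjusted p of 0.0025. *C1qb* had 1.5, 0.9 and 1.3 against 4.3, 2.8 and 3.1 (log2 difference 0.97, unadjusted p 0.0030). With replicate 1 left out *C1qa*, *C1qb*, *C1qc* and *Lyz2* passed, beside 2.6% of all genes, and *Ctss* did not. The adjusted p-values of *C1qa* and *C1qb* with all libraries were 0.451 and 0.481 by limma.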

How the data were processed

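RNA from pooled E16.5 lenses, 8 lenses in each of 3 replicates of 3 genotypes, was sequenced by the study. Per the labels and the study's methods, the authors aligned reads with HISAT2 to mm39, counted transcripts with StringTie, filtered low expression and normalized with edgeR. Trimmomatic and Cufflinks are also named in the submitters' processing notes, and versions are not given in the sources used here. The deposited signal values are CPM, read counts scaled to library size, given to 1 decimal. Library totals differ, which fits 1 composition factor for each library, an inference from the values. Read depth is unknown, so no counting interval is given.

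Entries with a symbol that reached 1 or more in no fewer than 2 of the 6 libraries were tested on log2(value + 1) with limma 3.58.1 in R 4.3.3 (moderated test with a mean trend, two-sided, Benjamini-Hochberg adjustment over 14348 genes). Fold changes on this scale understate those of low genes. Called means an adjusted p of at most 0.05 with at least 1.5-fold. The fit was tested on simulated data drawn from control means and spreads, with no outlying library such as compound KO replicate 1. P-values measure the spread between pooled-lens samples. Genes named are Mafg, Mafk and members of 13 role lists, the 12 higher and 12 lower genes with the largest change among those past the unadjusted p, not overlapping and averaging 10 or more in a group, the 5 with the smallest adjusted p, and those called without compound KO replicate 1. Sirt7 and Atrip, which overlap named genes, Mknk2, and the cell type markers named singly (such as Mip, Bfsp1, Cdh1 and the C1q genes) were added after values were seen. Members and lists were chosen with earlier results of these data known. Another 12 lists mark cell types. Positions and starts come from GENCODE M39 on GRCm39, which held 91.9% of tested symbols. Dates stand in place of symbols for 22 tested entries. Alternatives changed the pseudocount (0.1), filter, scaling, samples, block, weights and each replicate. Tables and plots used Python 3.11.15, pandas 2.3.3 and matplotlib 3.10.9.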

Additional observations from a re-analysis of the deposited data

How the results depend on the processing

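The count of genes called after adjustment was 0 with all 6 libraries, 2 with all 9 libraries in the fit, 80 with array weights and 0 to 13 when a replicate was left out. Without compound KO replicate 1 it was 13, without replicate 2 it was 2, without replicate 3 it was 3, without control replicate 1 it was 2, and it was 0 without control replicate 2 or 3. None of the genes called with another replicate left out was among the 13 called without compound KO replicate 1. The count past the unadjusted p was 766, became 1356 with array weights and 1335 without a fold threshold, and ran from 382 (without control replicate 2) to 1620 (without compound KO replicate 3), with 440 without control replicate 3. Genes without overlap numbered 3430, 5323 with lens fiber scaling and 4298 to 5835 with a replicate left out, which leaves fewer samples to overlap. Same-numbered samples deviated together with r of 0.0947, 0.0589 and −0.105. These values were not set against those of differently numbered samples, so they cannot decide whether the numbers pair the samples. A replicate block gave 0 called genes and 942 past the unadjusted p.

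With libraries set to the same total, list medians became −0.033 for the Maf factors (−0.28 as reported), 0.10 for the study's candidates (−0.15), 0.43 for Nrf2 genes (0.20), 0.32 for heme and iron genes (0.09), 0.48 for sterol genes (0.24), 0.025 for heat shock proteins (−0.23) and 0.35 for stress genes (0.10). With lens fiber scaling, chosen after seeing the data, they were in the same order 0.33, 0.46, 0.79, 0.68, 0.84, 0.50 and 0.71, and −0.048 for gamma crystallins, 0.18 for lens transcription factors, 1.17 for cell cycle genes and 0.20 for capsule genes. Array weights gave 0.15 for sterol genes and −0.11 for heat shock proteins, which had −0.12 with no filter. With a replicate left out the medians ran from −0.51 to −0.19 for Maf factors, −0.23 to 0.27 for candidates, 0.091 to 0.24 for Nrf2 genes, 0.092 to 0.18 for sterol genes and −0.28 to −0.13 for heat shock proteins. Single genes were followed through every alternative for 55 genes, of which the sign turned for Mafk (0.0080 with equal totals, 0.33 with lens fiber scaling) and for Phgdh (0.022 with lens fiber scaling). With lens fiber scaling alone, 82 of 129 listed or named genes with a negative difference turned positive, among them Dnaja1 (0.29), Hey1 (0.18), Tfap2a (0.24), Prdx1 (0.44), Keap1 (0.33) and Bach2 (0.34). The cause of these shifts was not tested beyond the shift of all genes that each scaling brings.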
